A study of Mus musculus with 12 samples.

Results

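Mt1, Mt2, Slc30a1 and Slc39a14 are 4 genes of metal handling, and they were followed here through 12 mouse renal cortex arrays. Mt1 and Mt2 encode metallothioneins, Slc30a1 encodes the zinc exporter ZnT1 and Slc39a14 encodes the metal importer ZIP14. They were chosen by symbol, each as the probe set with exactly 1 gene symbol and the highest mean over the 12 arrays, and all 4 were measured, each by 1 probe set, among 19938 genes. The probe sets were 10574027 for Mt1, 10574023 for Mt2, 10352777 for Slc30a1 and 10421309 for Slc39a14. Mt1 and Mt2 are closely related paralogs, and how far their probe sets also bind the RNA of the other was not tested.

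The study set mice whose renal tubular epithelium lacks the glucocorticoid receptor (GR) against mice with intact GR, with and without acute kidney injury (AKI). GR-deficient mice were Pax8-Cre;nr3c1 flox/flox, and control mice were nr3c1 flox/flox, so both genotypes carried the floxed alleles and only GR-deficient mice carried the recombinase. Pax8-Cre acts in tubular epithelium, and the cortex also holds cells that keep the receptor. In the AKI groups, cortex was taken 24 hours after an intramuscular injection of glycerol, which injures muscle and sends myoglobin to the kidney. Healthy mice were a second cohort without injection, so any difference between the cohorts cannot be told apart from that of injury. The groups were GR-deficient AKI, GR-deficient healthy, control AKI and control healthy, with 3 arrays each. The labels number the arrays of a group, and nothing in them ties each array to its own mouse. The p-values therefore reflect the spread among these arrays alone, which may be technical, and the small number of arrays limits their precision. The labels used here give neither age nor strain.

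Metallothioneins are small cysteine-rich proteins that bind zinc and copper and buffer the free zinc of the cell. Zinc switches their genes on through the factor MTF-1, which binds metal response elements in the promoter, and glucocorticoids, oxidative stress and interleukin-6 are known to raise them as well. ZnT1 moves zinc out of the cell across the plasma membrane, and its gene is itself a target of MTF-1 in mouse cells. ZIP14 brings zinc, iron that is not bound to transferrin, and manganese into the cell, and in mouse liver interleukin-6 is known to raise it.

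Promoter windows were held by RefSeq (GRCm38.p6) for 3 of the 4 genes and run from 250 bases before to 50 bases after the start that this table uses. For Mt1 and Slc30a1 that start lies downstream of the first base of the annotated gene, so positions depend on the start taken. They are shown because the core of the metal response element, searched as TGCACNC and TGCGCNC on both strands, occurred in each of them. Capitals mark these cores, and a core on the opposite strand reads as its reverse complement. The Mt1 window lies at chr8:94178839-94179138 on the plus strand, that of Mt2 at chr8:94172368-94172667 on the plus strand and that of Slc30a1 at chr1:191906531-191906830 on the plus strand.
Mt1: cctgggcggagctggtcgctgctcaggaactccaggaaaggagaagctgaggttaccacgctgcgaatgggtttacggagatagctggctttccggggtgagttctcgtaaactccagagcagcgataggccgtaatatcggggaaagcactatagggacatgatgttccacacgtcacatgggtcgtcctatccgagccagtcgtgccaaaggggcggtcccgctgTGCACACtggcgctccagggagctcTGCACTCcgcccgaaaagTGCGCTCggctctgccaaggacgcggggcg
Mt2: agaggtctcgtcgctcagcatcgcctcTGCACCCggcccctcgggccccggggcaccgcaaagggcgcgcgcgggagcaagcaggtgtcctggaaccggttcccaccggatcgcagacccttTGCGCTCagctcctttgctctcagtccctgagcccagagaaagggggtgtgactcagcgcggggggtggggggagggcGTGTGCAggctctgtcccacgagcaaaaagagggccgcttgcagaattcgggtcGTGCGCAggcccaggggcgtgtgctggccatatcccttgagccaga
Slc30a1: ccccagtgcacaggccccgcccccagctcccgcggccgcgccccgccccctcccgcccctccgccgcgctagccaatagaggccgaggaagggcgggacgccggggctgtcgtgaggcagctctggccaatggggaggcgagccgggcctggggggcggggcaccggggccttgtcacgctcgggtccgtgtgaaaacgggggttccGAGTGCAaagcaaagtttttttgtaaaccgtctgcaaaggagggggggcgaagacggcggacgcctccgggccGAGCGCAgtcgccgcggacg
The Mt1 window held 3 cores, the Mt2 window 4 and the Slc30a1 window 2. Of all 32851 promoter windows of this length, 25.7% held at least 1 core and 1.97% held 3 or more. The core of the antioxidant response element, searched as TGACNNNGC on both strands, matched once in the Mt2 window and once in that of Slc30a1, and 12.4% of all windows held it. The palindromic consensus of the glucocorticoid response element was found in none of the 3 windows and in 0.00913% of all windows, and the STAT core TTCNNNGAA was in none of the 3 and in 8.3% of all. No match overlapped another. A match is a description of letters, and no match says only that these letters are not in the window.

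**Figure D1:**
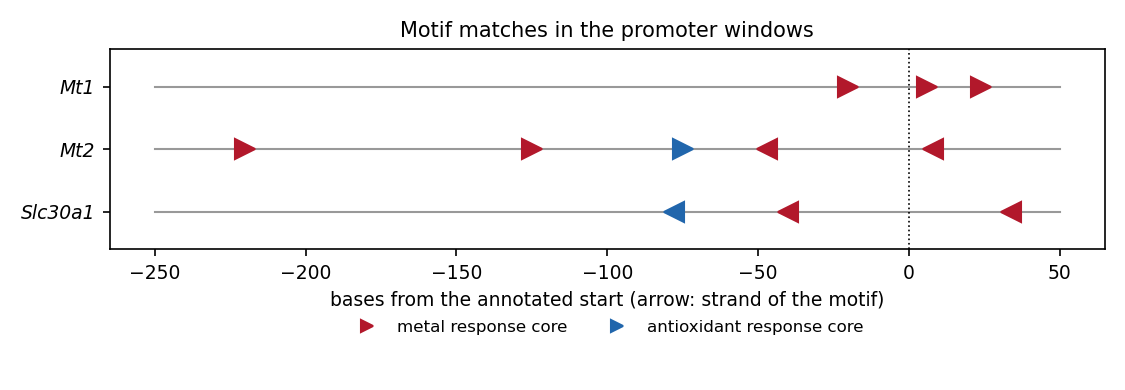
Matches of the metal response core (red) and the antioxidant response core (blue) in the promoter windows of Mt1, Mt2 and Slc30a1, by bases from the start used in the promoter table, with arrows for the strand. The 3 cores of Mt1 lie between positions -23 and 27, while the 4 of Mt2 spread from -223 to 11.

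Levels are given as deposited, on a log2 scale, and differences are log2 differences with a standard error (SE) from a limma fit across all genes. A gene was called where its p, adjusted by the Benjamini-Hochberg method over 19938 genes, was under 0.05. Overlap between the arrays of groups is given as a description, and its share over all genes was not computed. Medians over genes ranged from 7.001 to 7.092 across arrays. GR-deficient healthy replicate 1 was set off on principal component 3 (34.8, the others -14.5 to 5.83), and control AKI replicate 1 on component 2 (33.8, the others -21.6 to 11.6). Proximal tubule markers had mean levels of 10.5 to 14.1, those of adrenal gland 5.18 to 6.32 and those of skeletal muscle 5.33 to 7.63. Nr3c1, the targeted gene, was lower on each GR-deficient array (7.87 to 8.21) than on any control array (8.82 to 9.65).

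Mt2 rose most of the 4 genes after injury, in both genotypes. Its levels were 13.21, 12.86 and 12.51 on the GR-deficient AKI arrays, against 11.62, 11.56 and 11.13 on the GR-deficient healthy arrays. In control mice they were 13.99, 14.08 and 14.03 with AKI, against 11.07, 11.16 and 11.36 in healthy mice. No AKI array overlapped a healthy array in either genotype, and every GR-deficient AKI array lay below every control AKI array. The level rose by 1.42 ± 0.17 (SE) in GR-deficient mice, a 2.68-fold change with a 95% confidence interval (CI) of 2.10 to 3.43 (limma, adjusted p = 0.000343). In control mice it rose by 2.84 ± 0.17, or 7.15-fold (95% CI 5.59 to 9.16, limma, adjusted p = 3.33e-08). By size of increase Mt2 ranked 35 of 19938 genes in GR-deficient mice and 34 in control mice.

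Mt1 rose as well, by less. GR-deficient AKI arrays had 13.38, 13.06 and 12.92, against 12.58, 12.51 and 12.10 on GR-deficient healthy arrays. Control AKI arrays had 14.02, 14.09 and 14.09, against 12.17, 12.23 and 12.05 on control healthy arrays. The AKI and healthy arrays of a genotype did not overlap. Mt1 rose by 0.72 ± 0.14 in GR-deficient mice (1.65-fold, 95% CI 1.34 to 2.03, limma, adjusted p = 0.00913) and by 1.92 ± 0.14 in control mice (3.78-fold, 95% CI 3.07 to 4.65, adjusted p = 1.67e-07). Without GR-deficient AKI replicate 1, the array with the highest Mt1 and Mt2 of its group, the rise of Mt1 in GR-deficient mice was 0.59 and no longer passed (adjusted p = 0.067).

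Both metallothioneins were near the top of the array in control AKI. Mt1 ranked 5 or 6 and Mt2 ranked 7 or 8 among 19938 genes on those 3 arrays, within 0.452 to 0.506 log2 units of the highest gene. In control healthy mice Mt1 ranked 183 to 252 and Mt2 534 to 737. On the control AKI arrays the SD was 0.038 for Mt1 and 0.046 for Mt2, against 0.24 and 0.35 on the GR-deficient AKI arrays. What part the upper end of the scale has in these differences was not tested.

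Slc39a14 rose after injury in control mice and did not pass in GR-deficient mice. GR-deficient AKI arrays had 8.40, 8.58 and 8.22, against 8.04, 8.30 and 8.60 on GR-deficient healthy arrays, and these groups overlapped. Control AKI arrays had 9.81, 9.95 and 9.84, against 8.67, 8.59 and 8.66 on control healthy arrays, and these groups lay more than a log2 unit apart. The difference was 0.09 ± 0.14 in GR-deficient mice (1.06-fold, 95% CI 0.868 to 1.30, adjusted p = 0.792) and 1.23 ± 0.14 in control mice (2.35-fold, 95% CI 1.92 to 2.87, limma, adjusted p = 6.87e-06). Without GR-deficient healthy replicate 1 the difference in GR-deficient mice was -0.0501, and without GR-deficient AKI replicate 2 it was -0.0038, so its sign is not settled.

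Slc30a1 passed in neither injury comparison. Its levels were 9.07, 9.003 and 9.04 on the GR-deficient AKI arrays, against 9.37, 9.04 and 9.09 on the GR-deficient healthy arrays. They were 8.62, 8.93 and 8.94 on the control AKI arrays, against 9.02, 8.91 and 8.93 on the control healthy arrays. The groups overlapped in both genotypes, and the difference was -0.13 ± 0.12 in GR-deficient mice (fold 0.915, 95% CI 0.77 to 1.09, adjusted p = 0.617) and -0.12 ± 0.12 in control mice (fold 0.918, 95% CI 0.771 to 1.09, adjusted p = 0.538).

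After injury, 2 of the 4 genes were called in GR-deficient mice, where 4.64% of all genes were called, and 3 of the 4 in control mice, where 28.7% were.

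**Figure D2:**
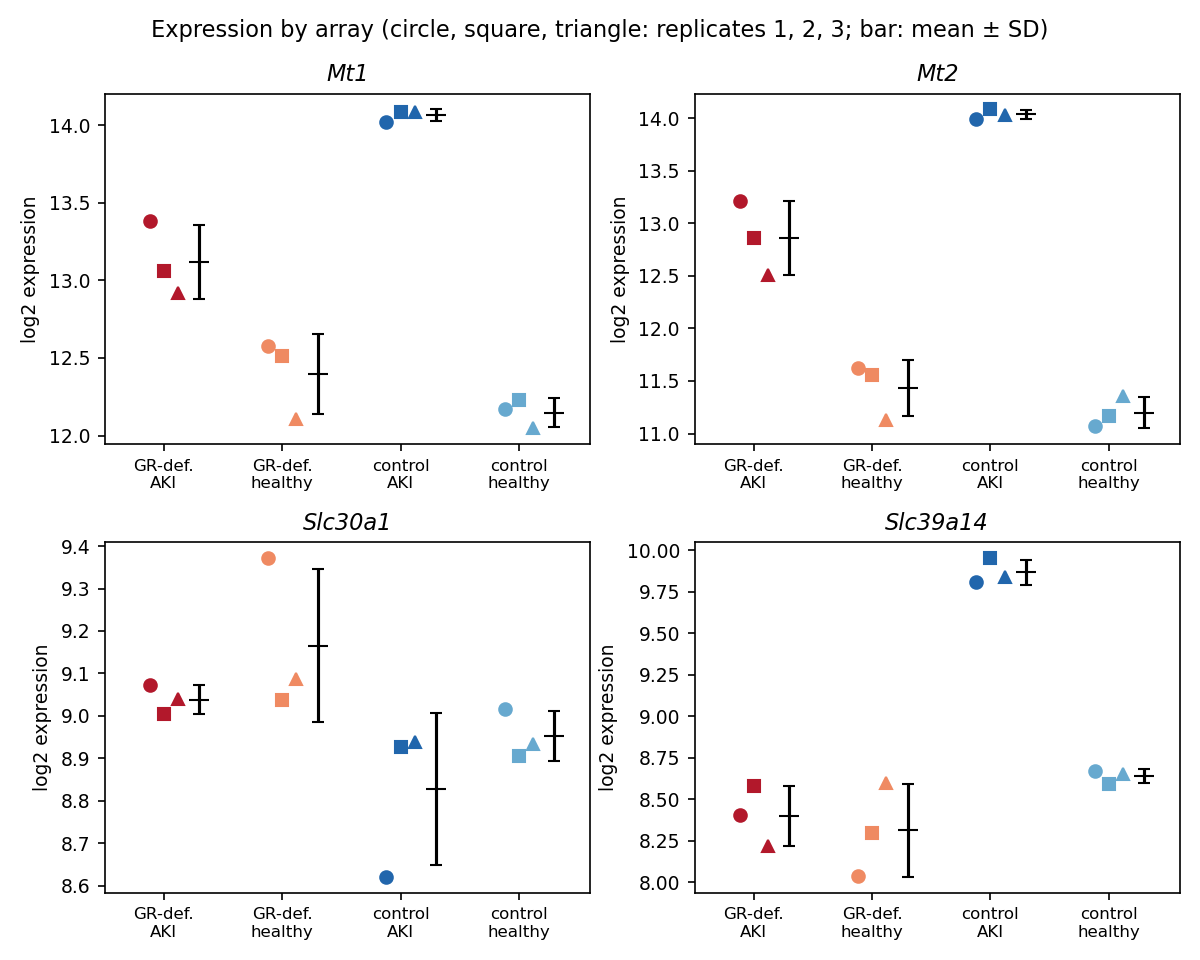
Log2 expression of Mt1, Mt2, Slc30a1 and Slc39a14 on each of the 12 arrays, by group, with replicates 1, 2 and 3 as circle, square and triangle and the group mean ± SD beside them. The vertical scales differ between panels, and the control AKI arrays stand above all others for Mt1, Mt2 and Slc39a14.

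The next question was what GR deficiency changed within a condition. In injured cortex Mt1, Mt2 and Slc39a14 were lower in GR-deficient mice, and no GR-deficient AKI array overlapped a control AKI array for them. Slc39a14 differed most, by -1.47 ± 0.14 (0.361-fold, 95% CI 0.296 to 0.442, limma, adjusted p = 6.66e-06), with rank 65 from the lowest of 19938 genes. Mt2 differed by -1.18 ± 0.17 (0.443-fold, 95% CI 0.346 to 0.567, adjusted p = 0.000196) and Mt1 by -0.95 ± 0.14 (0.519-fold, 95% CI 0.422 to 0.639, adjusted p = 0.000285). Slc30a1 was not called, with a difference of 0.21 ± 0.12 (1.16-fold, 95% CI 0.973 to 1.38, adjusted p = 0.269). Every GR-deficient AKI array lay above every control AKI array for Slc30a1, which is a description and no test. Thus 3 of the 4 genes were called where 17.4% of all genes were.

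In healthy cortex none of the 4 genes was called by limma, where 0.145% of all genes were, and 1 of the 4, Slc39a14, had an unadjusted p under 0.05. The difference was 0.25 ± 0.14 for Mt1 (adjusted p = 0.561), 0.24 ± 0.17 for Mt2 (adjusted p = 0.662), 0.21 ± 0.12 for Slc30a1 (adjusted p = 0.549) and -0.32 ± 0.14 for Slc39a14 (adjusted p = 0.411). Their 95% confidence intervals reached from 0.966- to 1.46-fold for Mt1, from 0.922- to 1.51-fold for Mt2, from 0.975- to 1.38-fold for Slc30a1 and from 0.653- to 0.977-fold for Slc39a14. Every interval is for the gene alone, without adjustment over genes.

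The interaction tested whether the injury response itself differed between genotypes. It was negative, a smaller rise in GR-deficient mice, for Mt2 (-1.41 ± 0.24, adjusted p = 0.00141), Mt1 (-1.20 ± 0.20, adjusted p = 0.00136) and Slc39a14 (-1.14 ± 0.19, adjusted p = 0.0015), all from limma. For Slc30a1 it was -0.0033 ± 0.17 (adjusted p = 0.995), with a 95% confidence interval from 0.781- to 1.28-fold. On the log2 scale the response in GR-deficient mice was 50.2% of that in control mice for Mt2 and 37.6% for Mt1. For Slc39a14 no such percentage is given, because leaving out 1 array moved its GR-deficient difference between -0.0501 and 0.23. So 3 of the 4 genes were called where 11.5% of all genes were. The interaction shares its arrays with the comparisons above, so it is no separate evidence for them.

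**Figure D3:**
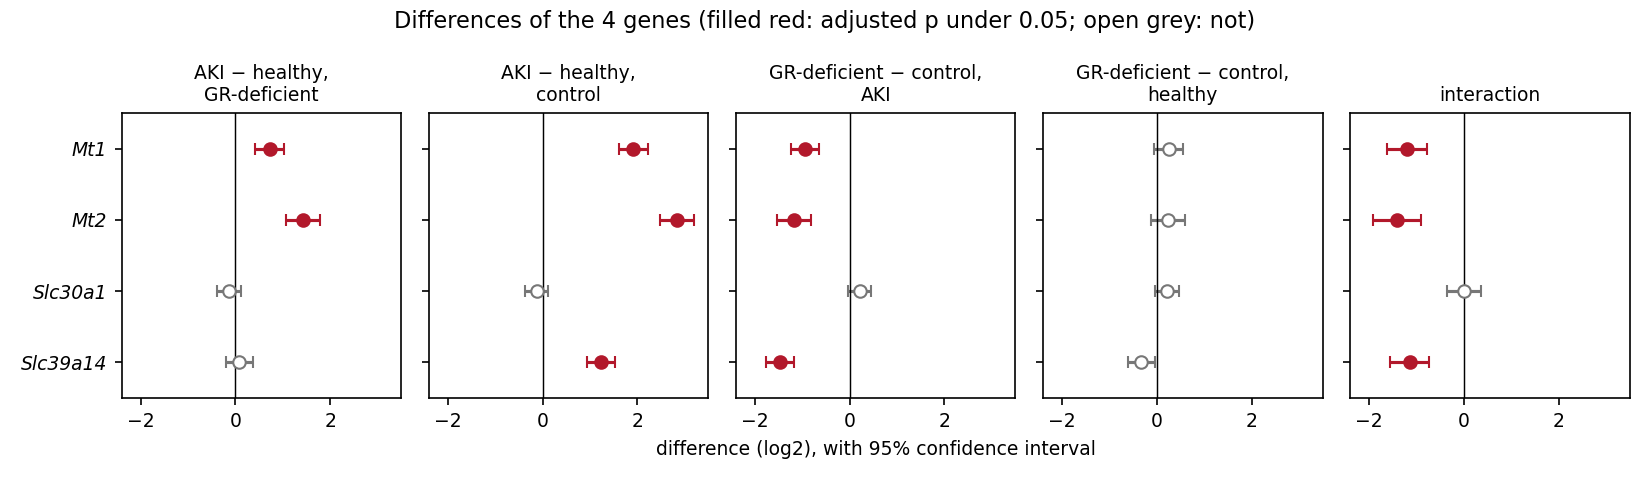
Log2 differences of the 4 genes with 95% confidence intervals for both injury responses, both genotype comparisons and the interaction. Filled red points had an adjusted p under 0.05, and Mt1, Mt2 and Slc39a14 are filled for GR-deficient minus control in AKI (-0.95, -1.18 and -1.47) and open in healthy mice.

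The groups could then be put in order for each gene. For Mt1 and Mt2 the order from the highest was control AKI, GR-deficient AKI, GR-deficient healthy and control healthy, and of the neighbours only the last pair did not differ by the test. GR-deficient AKI exceeded control healthy by 0.97 ± 0.14 for Mt1 (limma, adjusted p = 0.000583) and by 1.66 ± 0.17 for Mt2 (adjusted p = 3.55e-05), so 2 of the 4 genes were called where 7.71% of all genes were. For Slc39a14 the order was control AKI, control healthy, GR-deficient AKI and GR-deficient healthy, and only control AKI was set apart from the rest. For Slc39a14 GR-deficient AKI minus control healthy was -0.24 ± 0.14 and was not called (adjusted p = 0.38). Every GR-deficient AKI array lay below every control healthy array for Slc39a14, which is a description and no test. For Slc30a1 the order was GR-deficient healthy, GR-deficient AKI, control healthy and control AKI, no neighbours differed by the test, and the ends, GR-deficient healthy and control AKI, differed by 0.34 ± 0.12 (adjusted p = 0.0445). In that comparison all 4 genes were called where 27% of all genes were, and Mt1, Mt2 and Slc39a14 were lower in GR-deficient healthy mice. The Slc30a1 call was lost without GR-deficient healthy replicate 1 (0.23), GR-deficient healthy replicate 3 (0.38), control AKI replicate 1 (0.23) or control AKI replicate 2 (0.39).

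The rest of the metallothionein and zinc transporter families gives the setting. The 24 other genes are Mt3 and Mt4, 9 of the Slc30 exporter family and 13 of the Slc39 importer family. Slc30 proteins mostly move zinc out of the cytosol into organelles, vesicles or the outside, and Slc39 proteins mostly move zinc into the cytosol. The list was drawn up with earlier results of these data known. After injury 2 of the 24 rose and 0 fell in GR-deficient mice, with a median difference of 0.11, and 7 rose and 4 fell in control mice, with a median of 0.0043. Of all genes 4.64% were called in GR-deficient mice and 28.7% in control mice. The medians over all genes were -0.026 in GR-deficient mice and 0.0013 in control mice. The 2 that rose in GR-deficient mice are Slc39a6 and Slc39a1. In AKI, 1 of the 24 was higher and 7 were lower in GR-deficient than in control mice, with a median of -0.12 against -0.043 over all genes, of which 17.4% were called. In healthy mice 0 of all 28 genes of the families passed in limma, where 0.145% of all genes passed. Of the 28, 4 had an unadjusted p under 0.05, and the share of all genes under that limit was not computed. No other tool was run. For the interaction 2 of the 24 were positive and 3 negative, where 11.5% of all genes were called.

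Mt3, a metallothionein known from the brain, had 8.24, 7.93 and 8.08 on GR-deficient AKI arrays, against 7.84, 7.98 and 8.10 on GR-deficient healthy arrays. It had 9.03, 8.46 and 8.52 on control AKI arrays, against 7.76, 7.91 and 7.79 on control healthy arrays. Its AKI and healthy arrays overlapped in GR-deficient mice and did not in control mice. Mt3 rose by 0.85 ± 0.14 in control mice (adjusted p = 0.000355) and was lower by -0.59 ± 0.14 in GR-deficient AKI than in control AKI (adjusted p = 0.0105, and 0.0571 without GR-deficient AKI replicate 2). Mt4, known from squamous epithelium, was called in none of the comparisons, with an injury difference of -0.17 ± 0.15 in GR-deficient mice and 0.23 ± 0.15 in control mice.

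Slc39a6, the importer ZIP6 of the plasma membrane, responded most among the other importers. Its levels were 7.86, 7.65 and 7.42 in GR-deficient AKI, against 7.01, 7.11 and 7.03 in GR-deficient healthy mice. They were 8.86, 8.51 and 8.45 in control AKI, against 6.97, 6.95 and 6.81 in control healthy mice, and no AKI array overlapped a healthy array of its genotype. Slc39a6 rose by 1.70 ± 0.13 in control mice (adjusted p = 2.78e-07) and by 0.59 ± 0.13 in GR-deficient mice (adjusted p = 0.0191), with an interaction of -1.10 ± 0.19 (adjusted p = 0.00157). The rise in GR-deficient mice was not called without GR-deficient AKI replicate 1 (adjusted p = 0.129), GR-deficient AKI replicate 2 (0.0681), GR-deficient healthy replicate 1 (0.0599) or GR-deficient healthy replicate 2 (0.0513).

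Slc39a5, an importer of the basolateral membrane in mouse intestine and pancreas, moved the other way. It had 9.08, 9.45 and 9.44 in GR-deficient AKI and 8.96, 9.05 and 9.08 in GR-deficient healthy mice, which overlapped. Control AKI arrays had 8.21, 7.88 and 7.95, below the 8.91, 8.94 and 9.18 of control healthy arrays. Slc39a5 fell by 1.00 in control mice (SE 0.13, adjusted p = 2.68e-05) and differed by 1.31 ± 0.13 between GR-deficient AKI and control AKI (adjusted p = 9.64e-06), and the interaction was 1.29 ± 0.18 (adjusted p = 0.000452).

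Slc39a1, a plasma membrane importer, rose by 0.89 ± 0.11 in control mice (adjusted p = 1.63e-05), and in GR-deficient mice it rose by 0.42 ± 0.11 (adjusted p = 0.0409), a call that held in 4 of 13 other fits and was lost without GR-deficient AKI replicate 1, 2 or 3 or GR-deficient healthy replicate 2 or 3 (adjusted p up to 0.202). In AKI it differed by -0.59 ± 0.11 between GR-deficient and control mice (adjusted p = 0.00136). Slc39a7, which releases zinc from the endoplasmic reticulum and Golgi, had an interaction of -0.65 ± 0.16 (adjusted p = 0.0178, and 0.0526 without control healthy replicate 3). Slc30a2, an exporter into vesicles, fell by 1.66 in control mice (SE 0.19, adjusted p = 7.83e-06), and its interaction was 1.01 ± 0.26 (adjusted p = 0.0213). That interaction was not called without control AKI replicate 2 (adjusted p = 0.058), control healthy replicate 1 (0.0562) or control healthy replicate 3 (0.0559). Slc30a7, an exporter into the Golgi, rose by 0.67 ± 0.12 in control mice (adjusted p = 0.000603). Slc30a5, also of the secretory pathway, was lower in GR-deficient AKI than in control AKI by -0.65 ± 0.14 (adjusted p = 0.00529).

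**Figure D4:**
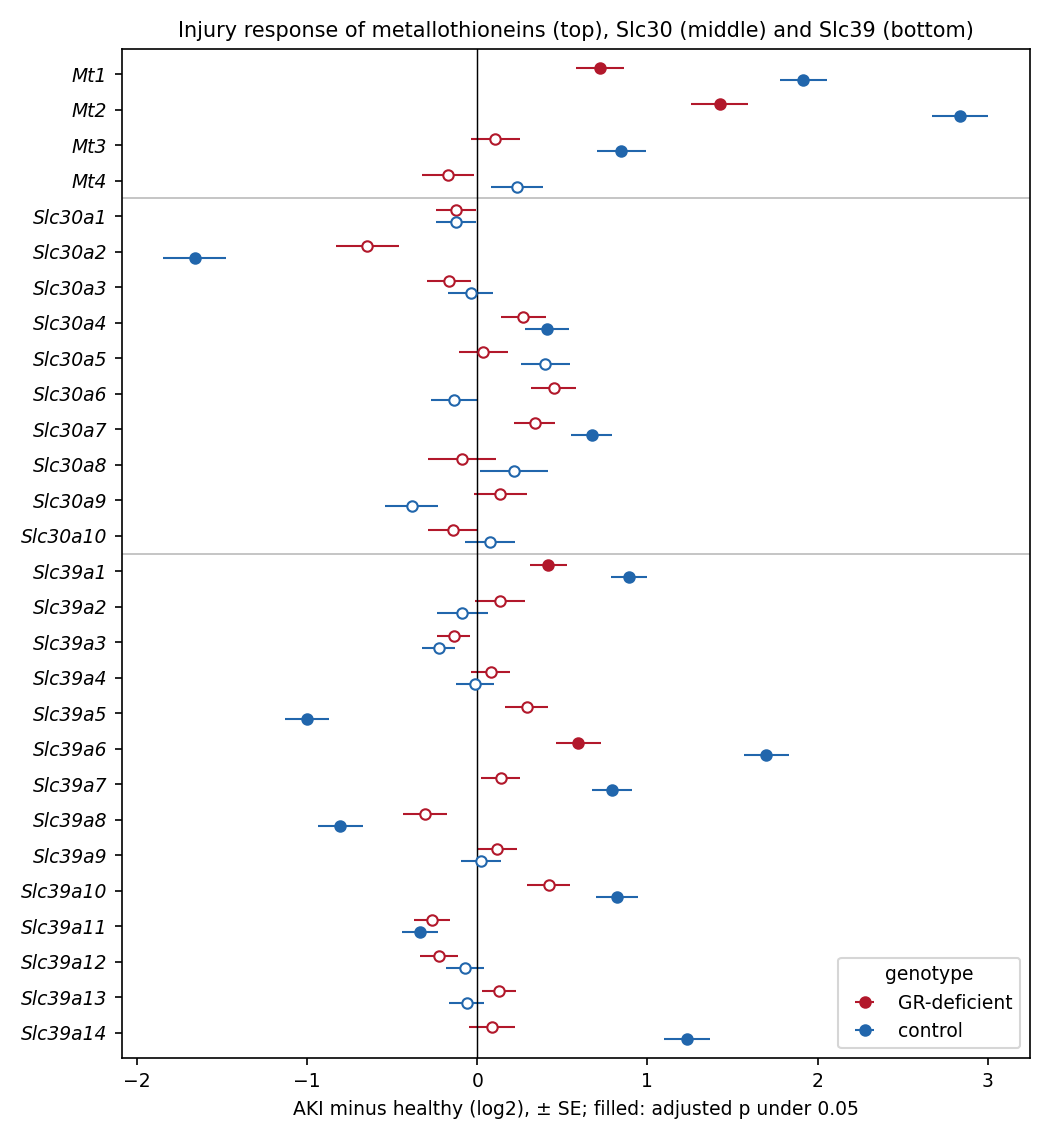
Injury response (AKI minus healthy, log2, ± SE) of the 28 metallothionein and zinc transporter genes in GR-deficient (red) and control (blue) mice, with filled points for an adjusted p under 0.05. Mt2 (1.42 in GR-deficient and 2.84 in control mice) lies farthest to the right, and Slc30a2 (-1.66 in control mice) farthest to the left.

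Among 7 genes of the factors and signals that induce metallothioneins, 1 rose in GR-deficient mice after injury (4.64% of all genes called), and 5 rose and 1 fell in control mice (28.7% of all genes called). In AKI 0 were higher and 5 were lower in GR-deficient than in control mice, where 17.4% of all genes were called, with a median of -0.51 against -0.043 over all genes. The 7 include Nr3c1, which is the gene that fell in control mice and 1 of the 5. Mtf1, the zinc sensor, had 8.38, 8.25 and 8.28 in GR-deficient AKI, against 7.95, 8.15 and 8.36 in GR-deficient healthy mice. It had 8.82, 8.74 and 8.69 in control AKI, against 8.26, 8.19 and 8.18 in control healthy mice. Mtf1 rose by 0.54 ± 0.11 in control mice (adjusted p = 0.00151) and differed by -0.45 ± 0.11 between GR-deficient AKI and control AKI (adjusted p = 0.0103). Its interaction of -0.39 ± 0.16 did not pass (adjusted p = 0.127).

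Il6, which encodes interleukin-6, had 4.39, 3.89 and 3.71 in GR-deficient AKI and 3.501, 3.45 and 3.37 in GR-deficient healthy mice. It had 4.76, 6.03 and 5.25 in control AKI, above the 3.17, 3.52 and 3.27 of control healthy mice. All these levels lay below the array medians of 7.001 to 7.092, and the fit without genes of a mean below 5 left Il6 out. Il6 rose by 2.03 ± 0.25 in control mice (adjusted p = 1.72e-05), differed by -1.35 ± 0.25 between GR-deficient AKI and control AKI (adjusted p = 0.00138) and had an interaction of -1.47 ± 0.35 (adjusted p = 0.013, and 0.052 when all probe sets were tested). Stat3, the factor that the interleukin-6 receptor activates, rose by 1.66 ± 0.19 in control mice (adjusted p = 1.16e-05), and its interaction was -1.01 ± 0.27 (adjusted p = 0.0266). The Stat3 interaction was not called without GR-deficient AKI replicate 3 (adjusted p = 0.0666), control AKI replicate 2 (0.0578), control healthy replicate 1 (0.0651) or control healthy replicate 2 (0.0566). Il6ra, a subunit of that receptor, was lower in GR-deficient AKI than in control AKI by -0.51 ± 0.1 (adjusted p = 0.00207). Nfe2l2, the oxidative stress factor NRF2, rose by 0.61 ± 0.14 in control mice (adjusted p = 0.00333), and in GR-deficient mice its difference was 0.54 ± 0.14 (adjusted p = 0.039), a call that held in 5 of 13 other fits and was lost without GR-deficient AKI replicate 1, 2 or 3 or GR-deficient healthy replicate 1 or 2 (adjusted p up to 0.218). In AKI Nfe2l2 differed by -0.04 ± 0.14 between GR-deficient and control mice (adjusted p = 0.902).

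**Figure D5:**
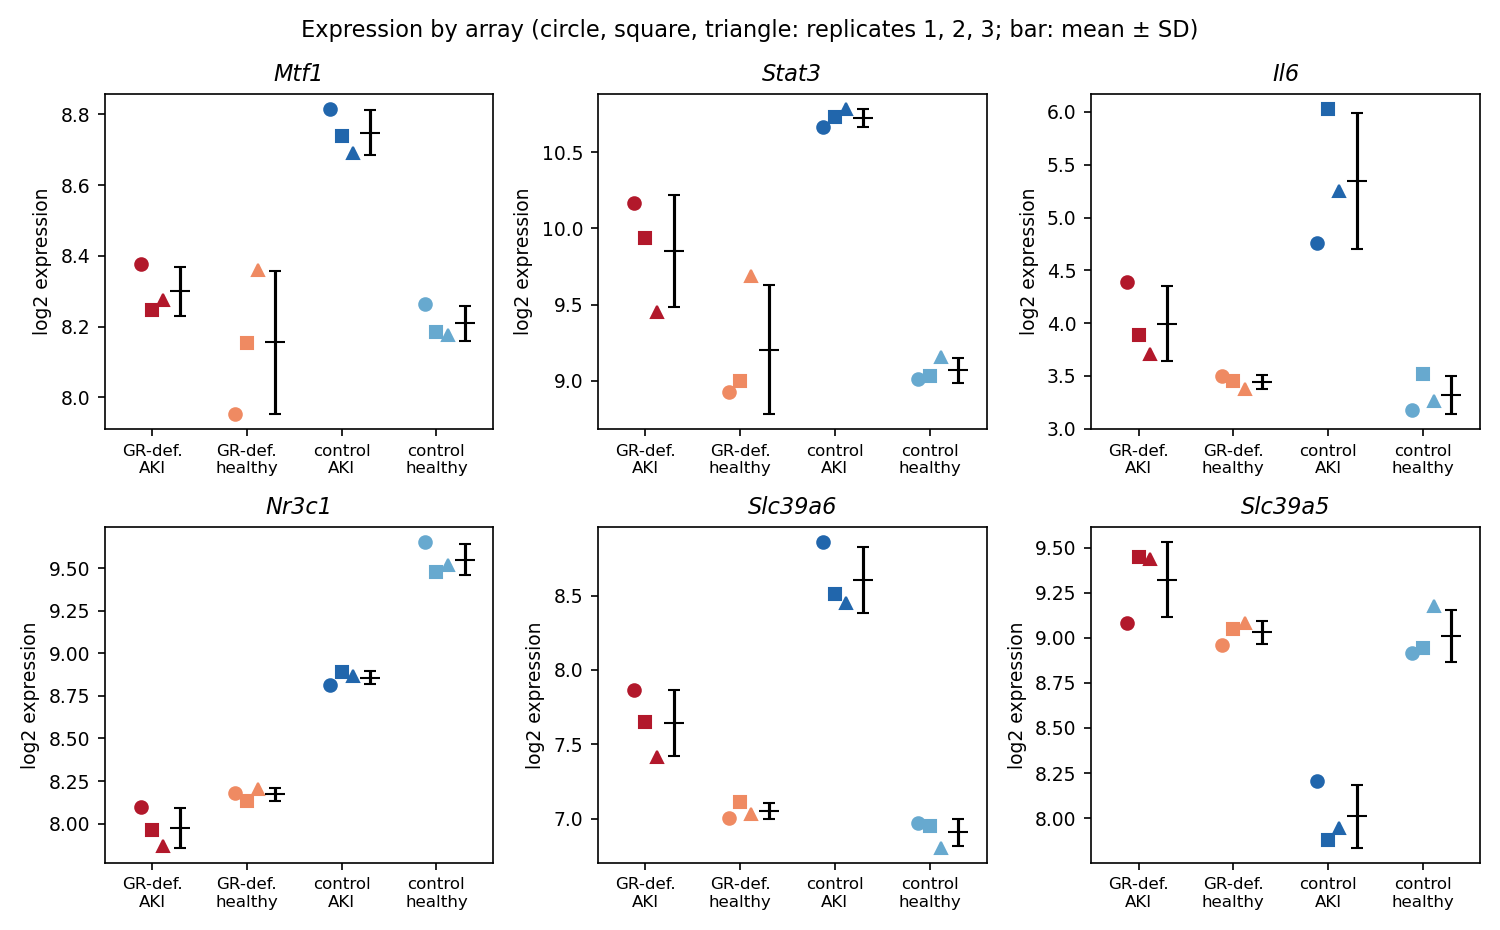
Log2 expression of Mtf1, Stat3, Il6, Nr3c1, Slc39a6 and Slc39a5 on each array, by group, with the mean ± SD. Mtf1, Stat3, Il6 and Slc39a6 are highest on the control AKI arrays, Slc39a5 is lowest there (7.88 to 8.21), and Nr3c1 is lowest on the GR-deficient arrays.

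Among 10 other genes known as targets of the glucocorticoid receptor, 1 rose and 1 fell in GR-deficient mice after injury (4.64% of all genes called), and 5 rose and 3 fell in control mice (28.7% of all genes called). In AKI 0 were higher and 7 were lower in GR-deficient than in control mice, where 17.4% of all genes were called, with a median of -0.70 against -0.043 over all genes. Tsc22d3, 1 of the 10, was not called in AKI, with means of 7.61 in GR-deficient and 7.36 in control mice. In healthy mice 0 of the 10 were called between genotypes, where 0.145% of all genes were, with a median of -0.064. The interaction was negative for 5 of 10, where 11.5% of all genes were called. Map3k6, a stress kinase, differed by -1.48 ± 0.13 in AKI (adjusted p = 3.75e-06), and Pdk4, which restrains glucose oxidation, by -1.79 ± 0.25 (adjusted p = 0.000153). Of 10 copper handling genes, 1 rose in GR-deficient mice (4.64% of all genes called), and 1 rose and 2 fell in control mice, a share near the 28.7% of all genes called there. Slc31a1, the copper importer, fell by 1.09 in control mice (SE 0.15, adjusted p = 4.53e-05). Of 7 genes of iron and manganese handling, which include ferritin chains, 3 rose in GR-deficient mice (4.64% of all genes called). They are Ftl1, Tfrc and Slc40a1, and without GR-deficient AKI replicate 1 none of them was called (limma, adjusted p = 0.0563, 0.057 and 0.16). The Slc40a1 call held in 6 of 13 other fits. In control mice 2 rose and 2 fell (28.7% of all genes called). Ftl1, a ferritin chain, rose by 0.60 ± 0.11 in GR-deficient mice (adjusted p = 0.00799, and 0.0563 without GR-deficient AKI replicate 1) and by 0.58 ± 0.11 in control mice (adjusted p = 0.00118).

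Over the 12 arrays the level of Mt1 was most like those of Tinagl1 (Pearson r 0.991), Pdlim7 (0.991) and Anxa3 (0.989), and that of Mt2 like those of Ppa1 (0.995), Tubb2a (0.993) and Xdh (0.991). Mt1 and Mt2 had an r of 0.988 with each other. The nearest to Slc39a14 were Peak1 (0.979), Map3k3 (0.976) and Sav1 (0.976), and the nearest to Slc30a1 were C1galt1c1 (0.975), Cbx3 (0.96) and Umod (0.954), the last a gene of the thick ascending limb. The arrays fall into 4 groups of 3 and share their libraries across genes, so these values mostly restate the group differences and carry no p.

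Markers of some cell types differed between the same groups, and those of others did not. Neutrophil markers (9 of 9 measured) had a mean level of 5.34 to 5.63 in GR-deficient AKI and 5.27 to 5.38 in GR-deficient healthy mice. Their level was 6.13 to 6.41 in control AKI and 5.12 to 5.38 in control healthy mice. Of the 9, 6 were called lower in GR-deficient AKI than in control AKI, where 17.4% of all genes were called. Proximal tubule markers (10 of 10 measured) had 12.3 to 12.6 in GR-deficient AKI and 12.5 to 12.9 in GR-deficient healthy mice. They had 11.3 to 11.7 in control AKI and 12.97 to 13.02 in control healthy mice. Of the 10, 9 were called higher in GR-deficient AKI than in control AKI, against the same 17.4% of all genes. For monocytes and macrophages (10 of 10 measured) the ranges were 7.17 to 7.45 in GR-deficient AKI and 7.35 to 7.62 in control AKI, which overlapped. Of these 10, 1 was called higher and 2 lower. For loop, distal tubule and collecting duct 7 of 10 markers were called higher and 1 lower. Called higher and lower were 2 and 2 of 7 endothelial, 1 and 1 of 4 podocyte and 1 and 1 of 5 hepatocyte markers. For fibroblasts and mural cells 1 of 7 was lower, and for adrenal gland 1 of 7. These counts, from monocytes on, stand against the same 17.4% of all genes called, and 1 of 7 is near that share. None of 7 lymphocyte or 6 skeletal muscle markers was called. In bulk cortex fewer cells of a type and less RNA per cell cannot be told apart, and the part of these cells in the results above was not tested. An array gives no zero, so no marker can be called absent.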

How the data were processed

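Renal cortex RNA of 12 samples was amplified and measured on arrays. The authors deposited log2 expression values made by RMA. The submitters' processing notes name affy and oligo for this, without versions. Background correction, normalization between arrays and summary of probes are thus the authors' own. The log base was read from the values, whose maxima lay between 14.73 and 14.9. Of 35556 probe sets, 21789 had exactly 1 gene symbol in the platform annotation and gave 19938 genes, and dim genes stayed in.

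Differences were fitted in R 4.3.3 with limma 3.58.1 on 4 group means, with 8 residual and 6.26 prior degrees of freedom, two-sided, Benjamini-Hochberg over all genes, threshold 0.05. The fit was tested on simulated data with independent normal noise and no outlying arrays. A difference of 0.5 log2 units was called in 32 to 38% of changed genes for the injury and genotype comparisons. For the interaction it was called in 8%, so a true difference of this size can often be missed. The members and gene lists were chosen with earlier results of these data known. Beside the members, Nr3c1 and Mtf1, genes were named as up to 3 of each list with the smallest p among those called, and up to 3 with the highest Pearson r. Not every gene that this rule gives is printed. Samples were not paired by replicate number, because the labels do not say that a number is shared between groups. The 18 same-number correlations of deviations from the group means ran from -0.41 to 0.252, with 3 over 0.1. With 3 arrays a group they cannot exclude a pairing.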

Additional observations from a re-analysis of the deposited data

Results flagged for a closer look

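The injury response differed between GR-deficient and control mice by the interaction test (limma, adjusted p under 0.05) for the genes given here, as the response in GR-deficient minus that in control mice on the log2 scale. Among the 4 members it was -1.20 for Mt1, -1.41 for Mt2 and -1.14 for Slc39a14. Among the other zinc genes it was -0.74 for Mt3, -1.10 for Slc39a6, -0.65 for Slc39a7, 1.01 for Slc30a2 and 1.29 for Slc39a5. Among the factors and signals it was -1.47 for Il6, -1.01 for Stat3 and 0.50 for Nr3c1. For copper and iron genes it was 1.08 for Slc31a1, 1.01 for Slc31a2, another copper transporter, and 0.52 for Slc11a2, the iron transporter DMT1. For targets of the glucocorticoid receptor it was -1.63 for Map3k6, -1.94 for Zbtb16, a transcription factor, and -1.89 for Pdk4. Fits without 1 array lost some of these calls. For Mt3 these were GR-deficient AKI replicates 2 and 3, GR-deficient healthy replicates 2 and 3 and control healthy replicates 1 and 3. For Slc39a7 it was control healthy replicate 3, for Slc30a2 control AKI replicate 2 and control healthy replicates 1 and 3, and for Stat3 GR-deficient AKI replicate 3, control AKI replicate 2 and control healthy replicates 1 and 2. For Nr3c1 they were GR-deficient AKI replicates 1 and 2, GR-deficient healthy replicate 2, control AKI replicate 2 and control healthy replicates 1 and 3. For Slc11a2 they were GR-deficient AKI replicates 1 and 3, GR-deficient healthy replicate 2, control AKI replicate 2 and control healthy replicates 1 and 3. The Slc31a2 call was lost in fits without any of the 3 GR-deficient AKI arrays, GR-deficient healthy replicates 1 and 2, control AKI replicates 1 and 2 and control healthy replicates 1 and 3, each left out alone. The adjusted p without an array was at most 0.0971 for these genes. With all probe sets tested the call was lost for Mt3 (adjusted p = 0.0767), Slc30a2 (0.0682), Il6 (0.052), Stat3 (0.0815), Nr3c1 (0.055), Slc31a2 (0.102) and Slc11a2 (0.0547). With quantile normalization it was lost for Nr3c1 (0.0554), Slc31a2 (0.0547) and Slc11a2 (0.0844).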

How the results depend on the processing

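Of 384 values of the 4 genes under other settings, 367 kept their direction and their side of the threshold, 9 lost the call and 8 changed sign. Several settings leave the difference itself unchanged, such as all probe sets, the replicate block or only the 2 groups. For these the direction was fixed in advance, and only the call could change. Leaving out 1 array gave 0.57 to 0.82 for Mt1 after injury in GR-deficient mice, -0.0501 to 0.23 for Slc39a14 in the same comparison (-0.0038 and -0.0501 with the sign changed), -0.11 to 0.10 for the interaction of Slc30a1 (changed in sign to 0.014, 0.10, 0.046, 0.051, 0.02 and 0.0058) and 0.23 to 0.40 for Slc30a1 in GR-deficient healthy minus control AKI. This Slc30a1 difference was not called with array quality weights (0.16), nor over all probe sets, with the replicate block or with only the 2 groups in the fit (0.34 each). With a replicate block no other call of the 4 genes changed. The labels do not say that samples of a number share more than that number. The block also ended the interaction call of Nr3c1 (adjusted p = 0.0525) and the calls of Slc39a1 (0.0631) and Nfe2l2 (0.071) after injury in GR-deficient mice. Of 28 zinc and metallothionein genes, 4 passed after injury in GR-deficient mice, 9 with array weights, 2 over all probe sets and 1 to 4 without 1 array (1 without GR-deficient AKI replicate 1, 2 without its replicate 2 or GR-deficient healthy replicate 2). The count was 17 with weights, against 11, for GR-deficient minus control in AKI, and 15, against 8, for the interaction (5 to 10 without 1 array, 5 without control healthy replicate 3). Over all genes, array weights gave 3196 calls, against 926, after injury in GR-deficient mice (277 to 920 without 1 array, 277 without GR-deficient AKI replicate 1), 9648 against 5715 in control mice, 7000 against 3460 for GR deficiency in AKI and 4905 against 2283 for the interaction. For GR deficiency in healthy mice 29 genes passed, 48 without dim genes, 301 with weights, 11 over all probe sets, 14 with 2 groups and 10 to 115 without 1 array (115 without GR-deficient healthy replicate 3). For GR-deficient AKI minus control healthy 1537 passed, 3913 with weights, 2688 with 2 groups and 748 to 1200 without 1 array (748 without GR-deficient AKI replicate 1). For GR-deficient healthy minus control AKI 5389 passed and 9509 with weights. The cause was not tested. Of 873 values of other named genes, 761 kept their call, 112 lost it and 0 changed sign. These results were picked from the calls of the main fit, and several settings keep the difference. The 0 therefore says little about stability.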
